A study of Mus musculus with 12 samples.

Results

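The entries mmu-miR-1937a, mmu-miR-1937b, mmu-miR-2142 and mmu-miR-720 of a mouse miRNA array were followed over 12 mice. These 4 of the 710 entries on the array were chosen by their brightness on these same arrays and because such entries have been suspected to be pieces of other RNAs, so their high intensity is a description and carries no test. Total RNA including miRNAs came from pelleted peripheral blood of 6 Tff2-KO and 6 WT mice of the same inbred strain, 3 males and 3 females of each genotype, with 1 array per mouse. Tff2 encodes a trefoil peptide that is secreted by mucosal epithelium, and the KO mice lack this gene. The KO line had been made in earlier work and the WT mice were bought from Charles River, so origin and genotype cannot be told apart. All animals were housed in 1 pathogen-free facility without a further treatment, and their age was not given in the sources used here. A blood pellet holds red cells, white cells and platelets together, and a change in the share of a cell type cannot be told apart from a change within cells.

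MicroRNAs are cut from hairpin precursors and guide Argonaute proteins to target mRNAs, mostly through a short seed near their 5′ end. Early miRNA catalogues also took in short reads that matched transfer RNA or ribosomal RNA, and such entries carry a miRNA name without a typical hairpin. In human, miR-720 has been described as a piece of the threonine tRNA and miR-1274a as a piece of a lysine tRNA. Cells produce tRNA pieces by cleaving mature or precursor tRNAs. Entries of 1 number with different letters, such as miR-1937a, miR-1937b and miR-1937c, were named for closely related sequences, and how far an RNA of 1 of them binds the probes of the others was not tested. The array holds probes for 710 miRNAs and star forms of miRBase 14 at 7 spots each, and bound RNA is labelled with biotin by an enzyme on the chip.

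A mature sequence for the 4 entries was not analysed here. Another entry of the array shows how a miRNA name can lie on a tRNA gene. Of 198 array entries matched to RefSeq by their exact mature name, miR-1983 had a hairpin that overlapped a tRNA gene (n-TItat14). Its hairpin lies at chr13:21896918-21897049 on the minus strand of GRCm38.p6 and has 132 bases, and the tRNA gene at chr13:21896938-21897031 covers 94 of them, shown in capitals in the RefSeq sequence. The mature miR-1983 at chr13:21896930-21896950 has 21 bases, of which the first 13, in capitals, belong to the tRNA gene and the rest to the trailer behind it.
miR-1983 hairpin: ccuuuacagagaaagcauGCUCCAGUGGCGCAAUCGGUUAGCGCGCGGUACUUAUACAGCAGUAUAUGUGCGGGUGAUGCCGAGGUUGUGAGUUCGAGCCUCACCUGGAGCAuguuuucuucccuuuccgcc
miR-1983 mature: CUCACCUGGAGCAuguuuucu
On these arrays miR-1983 was dim, with raw intensities from 24 to 116 (median 60). Whether the 4 entries overlap a tRNA gene was not tested.

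The raw intensity of an entry is the median of its 7 spots after background subtraction, without scaling between arrays. miR-1937a lay between 24110 and 56810 (median 31266) in Tff2-KO mice and between 12031 and 64375 (median 30943) in WT mice. miR-1937b lay between 17333 and 42426 (median 25180) among Tff2-KO and between 9447 and 63991 (median 24110) among WT animals. In both entries the range of the Tff2-KO mice fell inside that of the WT mice, whose 2 lowest values came from WT replicates 1 and 2 and whose highest came from WT replicate 6. The intensities of miR-1937a and miR-1937b in WT replicate 6 were the 2 highest of the whole table, followed by miR-486, a red blood cell miRNA, in Tff2-KO replicate 2 at 62387. Whether spots this bright were saturated is not given in the sources used here.

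miR-2142 lay between 13755 and 34524 (median 17532) among Tff2-KO and between 10683 and 32468 (median 14360) in WT mice. miR-720 was the dimmest of the 4, at 1597 to 11147 (median 4125) among Tff2-KO and 744 to 7546 (median 2899) in WT mice. The genotypes overlapped for each of the 4 entries. From the dimmest to the brightest mouse, miR-720 differed 14.98-fold, miR-1937b 6.77-fold, miR-1937a 5.35-fold and miR-2142 3.23-fold. Without WT replicate 6 the range of miR-1937b was 4.49-fold and that of miR-1937a 4.72-fold. Part of such a range is the brightness of the array itself, whose mean intensity had a median of 720.3 over Tff2-KO mice (543 to 1151) and of 493 over WT mice (375 to 999.98).

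**Figure D1:**
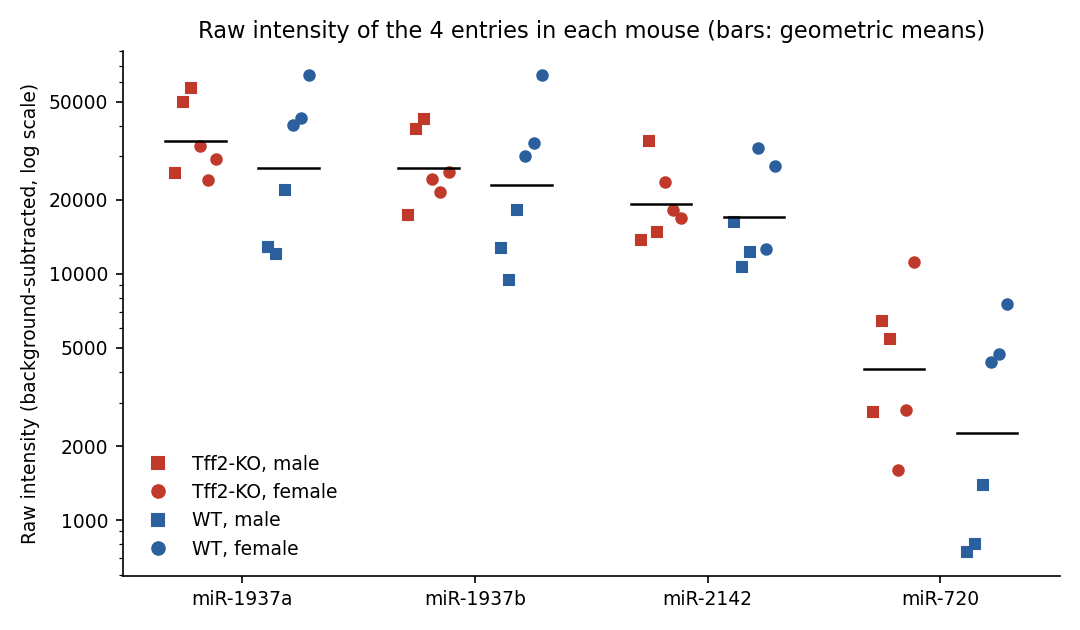
Raw background-subtracted intensity (log scale) of the 4 entries, with 1 point per mouse, red for Tff2-KO and blue for WT, squares for males and circles for females, and bars at the geometric mean of 6 mice. The genotypes overlap for every entry, and the WT males are the 3 lowest WT values of miR-1937a, miR-1937b and miR-720.

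By mean raw intensity miR-1937a stood at position 2 of the array, miR-1937b at 3, miR-2142 at 7 and miR-720 at 26. On single arrays miR-1937a ranked from 1 to 6, miR-1937b from 2 to 7 and miR-2142 from 4 to 8. miR-720 moved from rank 8 in Tff2-KO replicate 6 to rank 58 in Tff2-KO replicate 4. The 4 entries together held 12.4% to 29.1% (median 15.01%) of the summed raw intensity of an array. miR-1937a was brighter than miR-1937b on 12 of 12 arrays, and both were brighter than miR-720 on 12 of 12. miR-1937a was brighter than miR-2142 on 11 of 12 arrays and miR-1937b on 9 of 12, so the order of miR-1937b and miR-2142 was not fixed over mice. The probes differ, so this order ranks signals and not amounts of RNA.

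**Figure D2:**
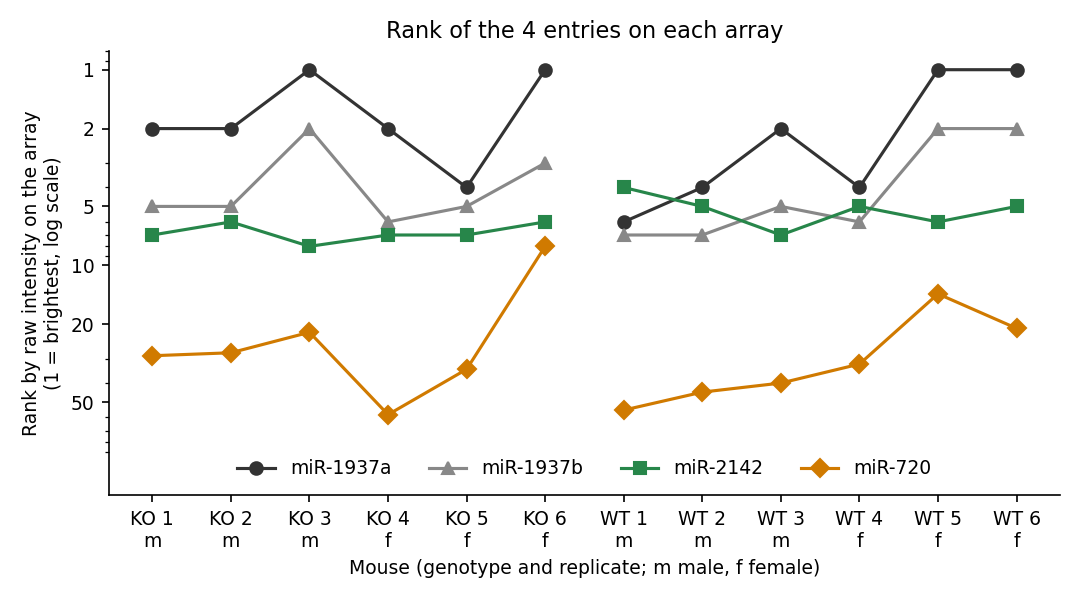
Rank of each entry by raw intensity on each of the 12 arrays (log scale, 1 is the brightest), by genotype, replicate and sex. miR-1937a, miR-1937b and miR-2142 stay within ranks 1 to 8 on all arrays, while miR-720 moves between rank 8 and rank 58.

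The first comparison asked whether these signals differ between the genotypes. Arrays were quantile normalized, so that all 12 share 1 distribution of values, and log2 values were tested with limma over all 710 entries with Benjamini-Hochberg adjustment. The geometric mean of miR-1937a was 34524 for Tff2-KO against 29917 for WT, a log2 difference of 0.21 (standard error 0.22, adjusted p = 0.766 in limma). That of miR-1937b was 24558 and 23716, a log2 difference of 0.05 (standard error 0.23, adjusted p = 0.949 in limma). With cyclic loess in place of quantile normalization, both differences turned negative. miR-2142 stood at 17945 for Tff2-KO against 21457 for WT, a log2 difference of -0.26 (standard error 0.16, adjusted p = 0.591 in limma), and its sign turned positive on unscaled values and when arrays were scaled by their median or their 75th percentile. miR-720 stood at 3705 for Tff2-KO against 2917 for WT, a log2 difference of 0.35 (standard error 0.58, adjusted p = 0.842 in limma). The difference of miR-720 was 0.87 on unscaled values, 1.01 after median and 0.84 after 75th percentile scaling, and did not pass under any of them.

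Of the 4 entries, 0 passed an adjusted p under 0.05 in limma and 0 an unadjusted p under 0.05, against 0% and 9.44% of all 710 entries. The 95% confidence interval of the log2 difference was -0.28 to 0.69 for miR-1937a, -0.46 to 0.56 for miR-1937b, -0.61 to 0.09 for miR-2142 and -0.91 to 1.60 for miR-720. The interval of miR-720 was the widest of the 4 and reached far to both sides of 0. At the top of the array quantile normalization passes on little more than the rank, since the 12 mice took only 4 distinct normalized values for miR-1937a and 5 each for miR-1937b and miR-2142, while miR-720 had 12.

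The second comparison set females against males within genotypes. Log2 differences (female minus male) were 0.13 for miR-1937a, 0.23 for miR-1937b, 0.07 for miR-2142 and 0.69 for miR-720, with adjusted p between 0.779 and 0.894 in limma. After median scaling of the arrays they were 0.79, 0.87, 0.63 and 1.32, and on unscaled values 0.57, 0.64, 0.40 and 1.10, again without a pass. Again 0 of 4 passed at an adjusted and 0 at an unadjusted p under 0.05, against 0% and 7.89% of all entries. The third comparison was the difference of the genotype effects between sexes. For miR-720 the geometric mean was 3940 in Tff2-KO males and 1701 in WT males, but 3485 in Tff2-KO females and 5003 in WT females, so that Tff2-KO minus WT was 1.21 in males and -0.52 in females on the log2 scale (n = 3 mice each). The interaction of miR-720 was -1.73 (standard error 1.05, adjusted p = 0.549 in limma). Those of miR-1937a, miR-1937b and miR-2142 were -0.57, -0.69 and 0.16, with adjusted p up to 0.876 in limma. On unscaled values the interaction was -2.22 for miR-1937a, -1.99 for miR-1937b and -2.83 for miR-720, after median scaling -1.66, -1.43 and -2.27, and with cyclic loess -1.23, -1.005 and -1.92, none of which passed. In this test 0 of 4 passed at an adjusted and 0 at an unadjusted p under 0.05, beside 0.141% and 10% of all entries.

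In the raw values the 3 WT males lay below the 3 WT females for miR-720, miR-1937a and miR-1937b, and overlapped them for miR-2142. miR-720 was 744, 804 and 1393 in WT males and 4405, 4705 and 7546 in WT females. miR-1937a was between 12031 and 21813 in WT males and between 40074 and 64375 in WT females, and miR-1937b between 9447 and 18112 and between 30108 and 63991. The arrays of the WT males were also dim as a whole, with mean intensities of 375 to 520 against 455 to 999.98 in WT females. Among Tff2-KO mice, males and females overlapped for each of these 3 entries. After quantile normalization miR-720 kept apart in WT mice, with values up to 2114 in males and from 2901 in females, whereas miR-1937a and miR-1937b overlapped. This split was noticed in the values and was not tested beyond the fits above.

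A ratio of 2 entries on the same array does not move when an array is brighter as a whole. The ratio of miR-1937a over miR-1937b stayed between 1.01 and 1.48 (median 1.26) over the 12 arrays. Its standard deviation on the log2 scale was 0.17, and among the 780 pairs of the 40 brightest entries only 3 had a smaller one (median 0.53). Leaving out WT replicate 6, where both signals were at the top of the table, it was 0.15, and the ratio was near 1 in WT replicate 1 as well. miR-1937c, the dimmer relative of that name at 1817 to 13175, kept a similarly steady ratio to miR-1937b, with a standard deviation of 0.22. The ratio of miR-1937a over miR-2142 ranged from 0.793 to 3.83 and that over miR-720 from 2.63 to 20.8. miR-2142 over miR-720 was the most variable, from 1.51 in Tff2-KO replicate 6 to 21.7 in WT replicate 1.

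**Figure D3:**
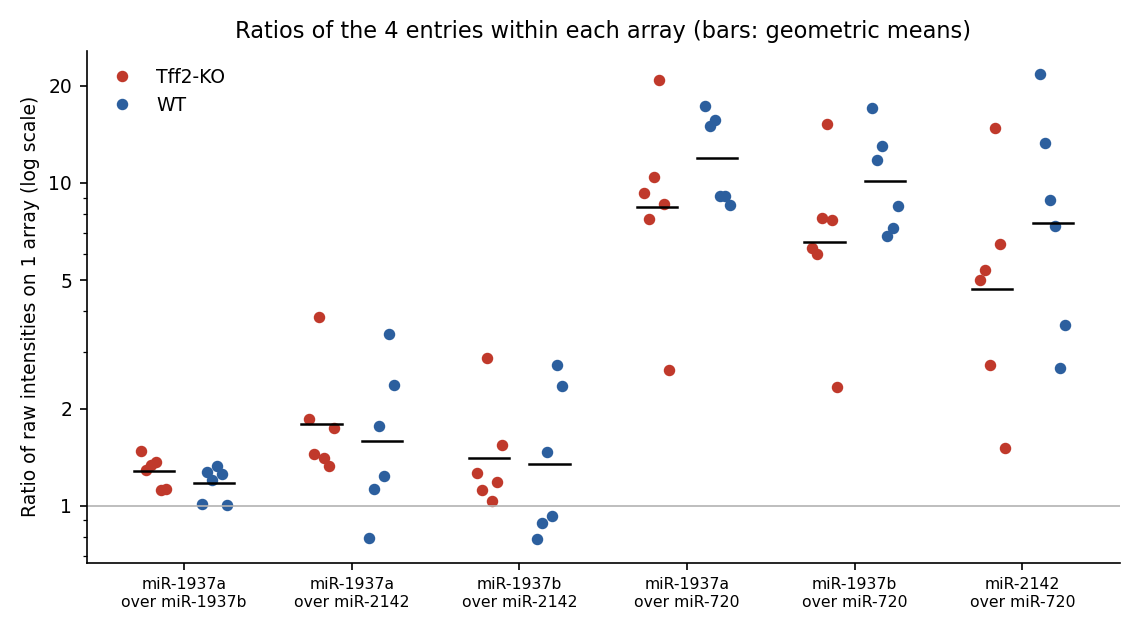
Ratio of raw intensities of 2 entries on the same array (log scale), with 1 point per mouse, red for Tff2-KO and blue for WT, and bars at the geometric mean of 6 mice. The ratio of miR-1937a over miR-1937b stays between 1.01 and 1.48, and the genotypes overlap for all 6 pairs.

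Between genotypes the ratios did not separate. miR-1937b over miR-720 had the smallest p, with geometric mean ratios of 6.57 for Tff2-KO and 10.2 for WT (two-sided exact permutation p = 0.165, adjusted over 6 pairs 0.477). miR-1937a over miR-1937b was at 1.28 and 1.17 (exact permutation p = 0.214, adjusted 0.477). The remaining 4 pairs had exact permutation p between 0.316 and 0.898, and 0 of 6 passed.

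The entries were next compared in how they rise and fall over the 12 mice, on log2 quantile normalized values. miR-1937a and miR-1937b had a Pearson r of 0.81 (permutation p = 0.00208, adjusted over 6 pairs 0.00624) and a Spearman rho of 0.90 (permutation p = 0.000290, adjusted 0.00174). Without the 2 mice farthest from the median of miR-1937a, r was 0.83, and it was 0.64 within Tff2-KO and 0.91 within WT mice. miR-1937b and miR-720 had r = 0.83 (permutation p = 0.000800, adjusted 0.00480) and rho = 0.86 (permutation p = 0.000600, adjusted 0.00180), with 0.81 after leaving out 2 mice, 0.74 within Tff2-KO and 0.94 within WT mice. Within a genotype this relation of miR-1937b with miR-720 had an exact permutation p of 0.0167 in WT mice and of 0.0833 in Tff2-KO mice (n = 6 each). Sex was not taken into account within a genotype. Normalized miR-720 of WT mice reached 2114 in males and began at 2901 in females. An r of miR-720 within WT mice thus includes that split.

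miR-1937a and miR-720 had r = 0.69 (permutation p = 0.0124, adjusted 0.0249) and rho = 0.79 (permutation p = 0.00329, adjusted 0.00658). This relation rested in part on single mice, since r fell to 0.63 (permutation p = 0.0539) without Tff2-KO replicate 5 and WT replicate 1, and leaving out WT replicate 1, 2 or 5 alone took its adjusted p to 0.0956, 0.0584 and 0.0508. Within Tff2-KO mice r was 0.52 and within WT mice 0.85. For orientation, the 44850 pairs of the 300 entries that stood above the size of the lowest value on all arrays had a median r of 0.00, with the middle 95% of them between -0.71 and 0.72. Pairs at least as high as miR-1937a with miR-1937b made up 0.921% of them, and those at least as high as miR-1937b with miR-720 made up 0.693%. For miR-1937a with miR-720 this share was 3.40%, so its r lay inside that middle 95%.

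miR-2142 did not follow the other entries after quantile normalization. Its r was -0.50 with miR-1937a, -0.39 with miR-1937b and -0.18 with miR-720, with rho from -0.39 to -0.05 and permutation p adjusted over the 6 pairs from 0.138 to 0.576. The sign depended on the scaling. On raw values these r were 0.57, 0.59 and 0.45, with median scaling, added after seeing the data, 0.61, 0.65 and 0.54, and with cyclic loess 0.00, 0.07 and -0.05. The relations among the other 3 entries kept a positive sign under each of these scalings, with r from 0.70 to 0.98. The raw intensities also moved with the mean intensity of the array, which includes the entry itself. For miR-2142 r was 0.91 (permutation p = 3.0e-05, adjusted over the 4 entries 0.000120, rho = 0.89 with permutation p = 0.000270, r = 0.83 without 2 mice). For miR-1937a it was 0.76 and for miR-1937b 0.74 (permutation p = 0.00460 and 0.00654, adjusted 0.00872 for both, rho = 0.68 and 0.64 with permutation p = 0.0181 and 0.0274, r = 0.76 and 0.77 without 2 mice). For miR-720 it was 0.55 (permutation p = 0.0640, rho = 0.51 with permutation p = 0.0939, r = 0.49 without 2 mice). For this entry r was -0.02 within Tff2-KO and 0.74 within WT mice. Part of each of these r is given in advance, since the entry is in the mean. Against the mean of all entries but these 4, r was 0.91 for miR-2142 and 0.63 for miR-1937a. It was 0.60 for miR-1937b and 0.42 for miR-720.

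**Figure D4:**
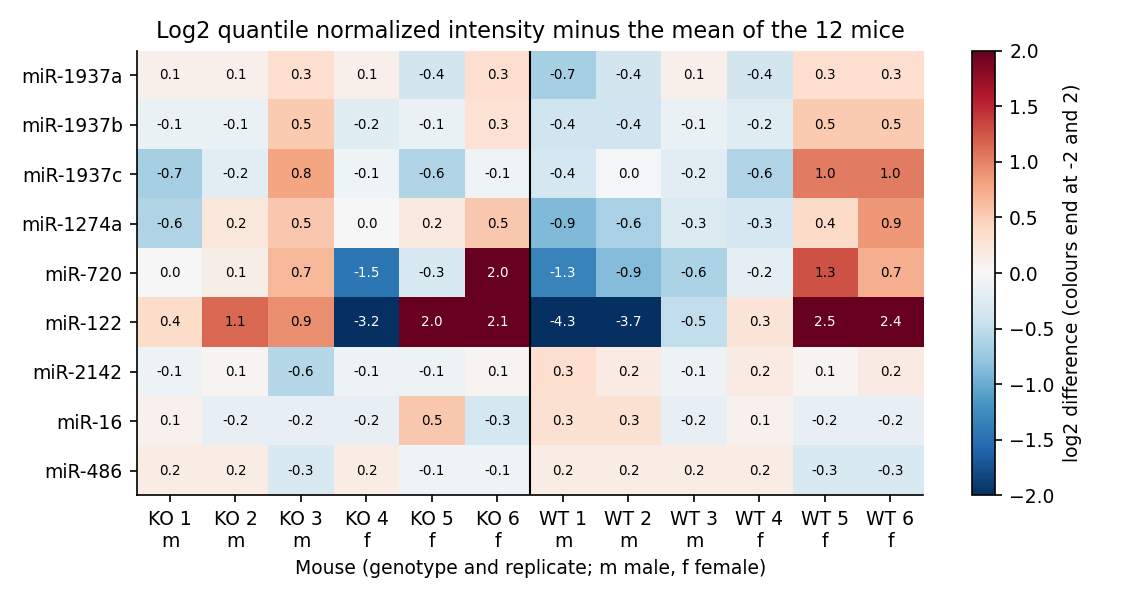
Log2 quantile normalized intensity of 9 entries in each of the 12 mice minus the mean of that entry over the mice, with red for above and blue for below and colours ending at -2 and 2. miR-1937a, miR-1937b, miR-1274a and miR-720 are above their mean in Tff2-KO replicates 3 and 6 and WT replicates 5 and 6, while miR-2142 has its lowest value in Tff2-KO replicate 3.

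The entries also differed in how much they varied between mice of 1 genotype. The standard deviation within genotypes on the log2 scale was 1.07 for miR-720, 0.37 for miR-1937b, 0.35 for miR-1937a and 0.19 for miR-2142. Among the 300 measured entries, whose median was 0.40, only 1 varied more than miR-720 and 292 varied more than miR-2142. Among the 40 brightest entries the one above miR-720 was miR-122 at 2.48, which was not among those 300. The small value of miR-2142 was measured on normalized values that hardly leave the top ranks. The raw ratios of miR-2142 to miR-1937a and to miR-1937b had standard deviations of 0.65 and 0.63 on the log2 scale. Such a ratio does not tell which of its entries moved. As a share of the summed raw intensity of an array, miR-2142 ran from 2.66% to 4.90%. The share of miR-1937a ran from 3.88% to 13.2% and that of miR-1937b from 3.55% to 10.6%.

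By the rule of naming the 3 entries of highest r over the 12 mice among the 300 measured ones, miR-1937a was followed by miR-1937b (0.81), miR-1274a (0.75) and miR-705 (0.75). miR-1937b was followed by miR-1274a (0.85), miR-1937c (0.83) and miR-720 (0.83), and miR-720 by miR-1937b (0.83), miR-1274a (0.72) and miR-455 (0.70). These r are a description over entries picked for being highest. The rho was lower for miR-1937a with miR-705 (0.50) and for miR-1937b with miR-1937c (0.52). miR-1274a, at raw intensities of only 104 to 476, thus stood in 3 of the 4 lists. miR-122 was outside the 300 measured entries and so was not ranked. Its r with miR-720 was 0.834, against 0.826 for miR-1937b. Over the 10 pairs of miR-1937a, miR-1937b, miR-1937c, miR-720 and miR-1274a, r lay between 0.49 and 0.85 (median 0.74), and it was positive for all 10 pairs on raw values (0.72 to 0.98), with cyclic loess (0.49 to 0.95) and in the authors' value table (0.48 to 0.87). Raw r are high in general, with a median of 0.77 over the pairs of the 40 brightest entries and 0.31 over those of the 300 measured ones.

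The 3 entries most like miR-2142 were miR-31*, the star strand of miR-31 (r = 0.78), miR-542-5p (0.71) and miR-878-3p (0.71). All 3 were dim, with raw intensities of 104 to 280, and their r with miR-2142 was 0.41, 0.45 and 0.27 on raw values. Their RefSeq sequences are shown to identify them, with the seed (bases 2 to 8) in capitals, and no seed could be set against miR-2142 without its own sequence.
miR-31*: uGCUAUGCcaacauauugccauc
miR-542-5p: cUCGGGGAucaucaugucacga
miR-878-3p: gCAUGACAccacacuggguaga
They lie on GRCm38.p6 at chr4:88910577-88910599, chrX:53049453-53049474 and chrX:66801518-66801539, all on the minus strand.

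Toward the other end, miR-16 was the entry most opposite to miR-1937a (r = -0.85) and miR-486 the one most opposite to miR-1937b (r = -0.93). Both are abundant in red blood cells, but other red blood cell markers were less opposite. miR-451 had r of 0.10 with miR-1937a and 0.22 with miR-1937b, and miR-144 had -0.22 and -0.46. miR-16 and miR-486 share the top ranks of the array with the members. After quantile normalization 1 of them can thus only go up a rank when another goes down. On raw values r was 0.47 for miR-16 with miR-1937a and 0.62 for miR-486 with miR-1937b. For miR-2142 the most opposite entry was miR-423-5p (r = -0.69, rho = -0.21, raw r = 0.59) and for miR-720 it was miR-294* (r = -0.76, rho = -0.76, raw r = -0.56).

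The signal of miR-720 moved with that of miR-122, the major miRNA of liver cells, which was among the markers of other tissues. Raw miR-122 ranged from 52 in WT replicate 1 to 7646 in WT replicate 6 and was above 1000 in 5 of 6 Tff2-KO and 3 of 6 WT mice. Over the 12 mice its r with miR-720 was 0.83 (rho 0.88), with 0.76 within Tff2-KO mice, 0.94 within WT mice and 0.81 without WT replicates 1 and 2. It was 0.90 on raw values and 0.86 with cyclic loess. The r of miR-122 with miR-1937b was 0.74, with 0.44 within Tff2-KO and 0.90 within WT mice. With miR-1937a it was 0.62, with -0.09 within Tff2-KO and 0.87 within WT mice, and it fell to 0.19 without those 2 mice. With miR-2142 it was -0.29, but 0.22 without those 2 mice and 0.36 on raw values. In WT mice raw miR-122 was 52 to 588 in males and 1913 to 7646 in females. Its r with miR-720 within WT mice thus includes a split by sex.

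Of the 5 markers of other tissues, miR-1 and miR-9 were near the background, at -12 to 104 and -28 to 28, and miR-133a and miR-124 were at 100 to 780 and 80 to 240. The sum of the 5 raw intensities was 624 to 5289 over Tff2-KO and 432 to 8482 over WT animals, and 2 of 5 stood above the size of the lowest value on all arrays. The part of liver RNA or of the blood draw in the miR-720 signal was not tested. Markers of blood cells were measured too. The 4 red blood cell miRNAs summed to 46287 to 108446 for Tff2-KO and 33480 to 103564 for WT, the 3 myeloid ones to 1308 to 3466 and 832 to 4157, and the 3 platelet ones to 1361 to 4537 and 824 to 3337. The 4 lymphoid miRNAs summed to 932 to 5637 (median 1843) for Tff2-KO and 552 to 4765 (median 918) for WT. All 4 had a positive log2 difference, and all 4 red blood cell miRNAs a negative one. Of the myeloid miRNAs 1 was positive and 2 negative, and of the platelet ones 2 and 1. At an unadjusted p under 0.05 in limma, 1 myeloid entry passed, miR-142-3p (raw -4 to 72, adjusted p = 0.335). No red blood cell, lymphoid or platelet entry did, where 9.44% of all 710 entries passed in either direction. One of the lymphoid miRNAs, miR-181a, had r = 0.87 with miR-1937a, above any entry named so far, but was outside the 300 measured entries (raw 76 to 444). The other lymphoid miRNAs had lower r with miR-1937a, at 0.39 for miR-150, 0.32 for miR-181b and 0.40 for miR-155. Of the platelet miRNAs, miR-222 had r = -0.80 with miR-1937a, miR-126-3p 0.29 and miR-221 0.26. The part of cell composition in the members' signals was not tested.

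**Figure D5:**
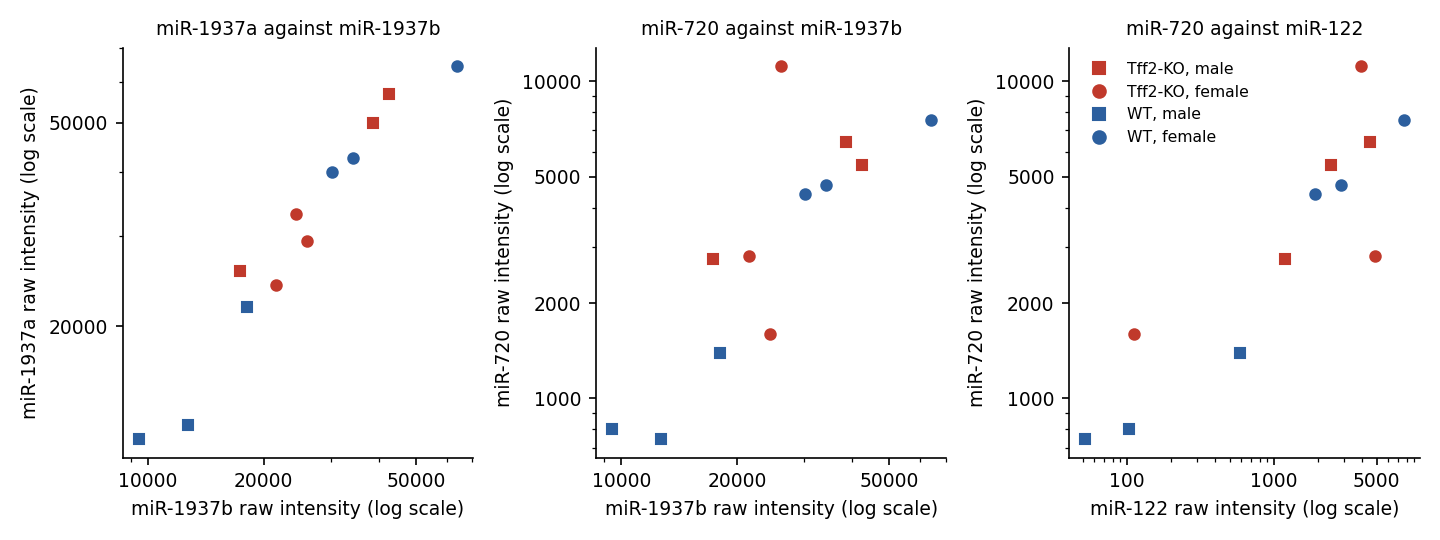
Raw intensities (log scales) of miR-1937a against miR-1937b, miR-720 against miR-1937b and miR-720 against miR-122, with 1 point per mouse, red for Tff2-KO and blue for WT, squares for males and circles for females. miR-1937a and miR-1937b lie close to 1 line (raw r = 0.98), while miR-720 scatters more widely around its relation with miR-1937b (raw r = 0.83) and with miR-122 (raw r = 0.90).

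Other entries with a related name or a described origin in other RNAs behaved in mixed ways. Of 25 such entries listed, 24 were on the array and 15 stood above the size of the lowest value on all arrays. By limma 12 had a positive and 12 a negative log2 difference (Tff2-KO minus WT), and the list's median was 0.00 beside 0.01 over all 710 entries. At an unadjusted p under 0.05, 0 were higher and 3 were lower, where 9.44% of all entries passed in either direction, and 0 passed adjustment. The 3 were miR-712*, miR-715 and miR-689, with log2 differences of -1.04, -1.16 and -0.66. The neighbours of miR-2142 by name, miR-2132 to miR-2146, reached at most 2765 (miR-2137), so that miR-2142 was the bright one of that series. In the list of 11 bright canonical miRNAs of blood cells, 3 differences were positive and 8 negative, with a median of -0.07 and 0 at an unadjusted p under 0.05.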

How the data were processed

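RNA of 12 mice was hybridized to Geniom biochips, 1 per mouse. The deposited raw table holds intensity values, which the authors extracted with Geniom Wizard, background corrected and summarized as the median of 7 spots. Their deposited value table holds linear intensity after quantile normalization, and which arrays entered it is not stated. From the raw table, arrays were quantile normalized with limma 3.58.1 under R 4.3.3, a floor of 1 was applied and log2 was taken. All 710 entries were fitted with lmFit and eBayes. Ratios were tested by exact permutation over 924 groupings, and correlations by permutation with 100000 resamples. Each mouse was a replicate, and the number of arrays limits precision. The members, lists and tests were chosen with earlier results of these data known. Named are the members, the 3 entries most like each (and the most opposite, chosen after values were seen), a list of related entries and one of bright blood miRNAs. The fits were tested on simulated data. Alternatives were the authors' table, other scalings, normexp (offset 50), a pseudocount of 16, the 355 brighter entries, sex as covariate, a replicate block and each mouse left out. Same-numbered mice deviated together with r of -0.17 to 0.11. Sequences are from RefSeq (GRCm38.p6), which matched 0 of the 4 members.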

Additional observations from a re-analysis of the deposited data

Results flagged for a closer look

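Over 20 groups of 6 mice, 3 held a mouse far from the rest, where about 1 is given by chance (1 in 20), a share that need not hold for tied values. In Tff2-KO mice miR-1937a was at a normalized intensity of 24873 in replicate 5, against 34552 to 40625 in the other 5. Also in Tff2-KO mice miR-2142 was at 13230.3 in replicate 3, against 18282 to 20323 in the others, which on the array was rank 8 against ranks 6 and 7. Both are steps between normalized values that the arrays share. In that same mouse the raw ratio of miR-1937a over miR-2142 was 3.83, against 1.32 to 1.86 in the other Tff2-KO mice, and miR-1937a itself was the brightest entry of the array.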

How the results depend on the processing

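In the genotype test, 4 entries passed in limma after normexp correction and 6 among the brighter entries, but 0 under the other alternatives, and none of the 4 members passed under any. Log2 differences changed sign for miR-1937a (-0.11) and miR-1937b (-0.25) with cyclic loess, and for miR-2142 on unscaled values (0.18) and after scaling by the median (0.33) or the 75th percentile (0.15), where the median of all entries moved to -0.12. For the interaction, 1 entry passed in the main setting (miR-26b*, raw -32 to 16), 2 after normexp and 0 on unscaled values and with median, 75th percentile scaling, cyclic loess, the pseudocount, the authors' value table or the brighter entries only. The interaction of miR-2142 turned to -0.78 on unscaled values, -0.22 after median and -0.17 after 75th percentile scaling. The r of miR-2142 with miR-1937a was 0.57 without normalization and 0.61 with median scaling (adjusted permutation p = 0.0424). With miR-1937b it was 0.59, 0.65 (adjusted permutation p = 0.0361) and, with cyclic loess, 0.074, and with miR-720 it was 0.45 and 0.54. The cause was not tested. The replicate numbers did not pair the mice, and 0 of 6 Tff2-KO mice matched the WT mouse of their number best. With the replicate block the genotype test called 0 entries, and the differences stayed at 0.21, 0.05, -0.26 and 0.35 (adjusted p = 0.806, 0.949, 0.663 and 0.842 in limma).

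Leaving out 1 mouse gave 0 to 2 interaction calls. The genotype difference was -0.048 to 0.16 for miR-1937b, where 5 mice each turned it negative, and -0.021 to 0.68 for miR-720, negative without Tff2-KO replicate 6. For miR-2142 the sex difference was -0.020 to 0.13 and the interaction -0.0068 to 0.30, both negative without Tff2-KO replicate 3. The log2 ratio between genotypes was -0.037 to 0.40 for miR-1937a over miR-2142 and -0.15 to 0.26 for miR-1937b over miR-2142. The r of miR-1937a with miR-720 was 0.61 to 0.81, that with miR-2142 -0.62 to -0.31 (adjusted permutation p = 0.0476 without WT replicate 6), and that of miR-2142 with miR-720 -0.28 to 0.024. Over 88 alternatives for the genotype, 80 for the sex and 80 for the interaction values of the members, 0 passed, with adjusted p from 0.218 to 1.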
